A study of Gossypium barbadense and Gossypium hirsutum with 8 samples.

Results

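The subject is the 200 most abundant Gossypium hirsutum probe sets in elongating cotton fibre. They are the 200 with the highest mean of log2(signal + 16) over 8 Affymetrix cotton arrays, taken from the 16800 probe sets whose identifiers begin with Ghi or GhiAffx, on an array of 24029 probe sets without the AFFX controls. A probe set is a group of short probes that together report 1 transcript or a few near-identical ones, and its signal is a brightness on a linear scale. The members are called by their rank, 1 being the highest. All values that placed a member among the 200 are given as a description.

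Fibre was harvested from ovules 10 days post anthesis (after flowering), and its total RNA was labelled with biotin. The high-yield (HY) group held the backcross inbred lines (BILs) NMGA144, NMGA017 and NMGA026, here called HY BIL 1, 2 and 3. The low-yield (LY) group held NMGA066, NMGA095 and NMGA023, here LY BIL 1, 2 and 3. The HY parent was SG747, labelled G. hirsutum, and the LY parent Giza75, labelled G. barbadense. The BILs descend from crosses of these species, and every line and parent had 1 array. The design text swaps the line names of HY BIL 1 and HY BIL 3, without a change to either group. The labels do not say at which of several planting sites the sampled plants grew. The study asked which transcripts differ between high-yielding and low-yielding lines.

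A cotton fibre is a single cell that grows out of the seed coat's outer layer and elongates for weeks before it thickens its wall with cellulose. During rapid elongation the cell loosens and extends its primary wall, keeps up turgor by taking up sugar and potassium, and lays down membrane and cuticle. Transcripts of expansins, lipid transfer proteins, arabinogalactan proteins, tubulins, actins and sucrose synthase are known to be plentiful in cotton fibre at this time. Upland cotton, G. hirsutum, is tetraploid, so most of its genes come in an A-genome and a D-genome copy of very similar sequence. The files do not pair probe sets with gene names, and 0 identifiers were found among the 74561 genes of a G. barbadense annotation. The roles of the members, and the fibre label itself, could not be checked against marker genes.

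The arrays differed in overall brightness, and the members differed less. The median signal of all probe sets was 13.5, 26.0 and 15.7 in HY BILs 1, 2 and 3, 36.3, 30.5 and 13.2 in LY BILs 1, 2 and 3, 22.3 in SG747 and 17.0 in Giza75, a 2.75-fold range. The median signal of the members was 4504, 5531 and 4659 in HY BILs and 5361, 6863 and 4407 in LY BILs. It was 6059 in SG747 and 5284 in Giza75. LY BIL 2 was the highest and LY BIL 3 the lowest, 1.56-fold apart. The summed signal differed 1.89-fold. Because of these differences, values are also given with quantile normalization, which gives every array the same distribution, and with each array scaled to the same summed signal.

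The 200 members, 0.832% of the probe sets, held 17.7% to 24.5% of all signal. Their share was 24.1%, 20.1% and 23.6% in HY BILs 1, 2 and 3 and 17.7%, 19.5% and 24.5% in LY BILs 1, 2 and 3. It was 19.7% in SG747 and 23.0% in Giza75. The group means were 22.6 ± 2.20% (SD, n = 3) in HY lines and 20.6 ± 3.50% (SD, n = 3) in LY BILs, and the groups overlapped. The 4 arrays with the highest shares had the 4 lowest medians, and the summed signal, the divisor of the share, was lowest on them too. The 10 highest members alone held 1.57% to 2.33% of the signal and the 50 highest 6.36% to 9.40%. The probe sets ranked 201 to 400 held 9.36% to 12.1%. In bulk fibre, more cells of a type and more RNA per cell cannot be told apart.

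**Figure D1:**
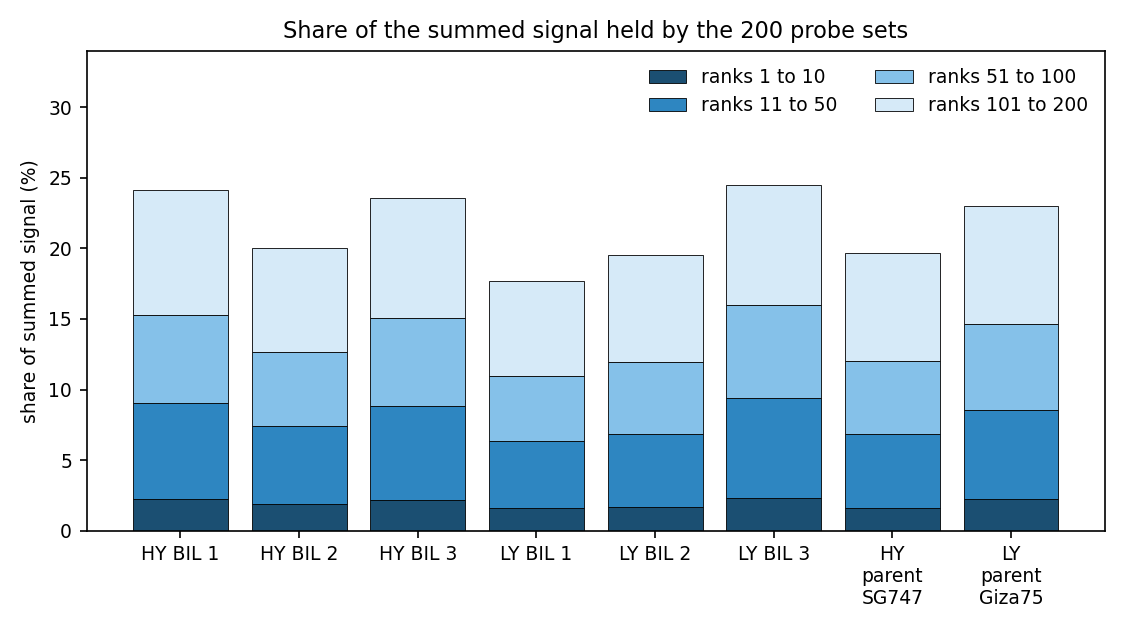
Share of the summed signal (%, vertical axis) held by the members on each of the 8 arrays, stacked by rank; each bar is 1 array. The whole bars run from 17.7% in LY BIL 1 to 24.5% in LY BIL 3, and the darkest segment, ranks 1 to 10, from 1.57% to 2.33%.

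The scale at the top was shallow. Rank 1 had a signal of 12308, 15508 and 12299 in HY BILs 1, 2 and 3 and 13903, 15376 and 10673 in LY BILs 1, 2 and 3, with 12008 in SG747 and 15118 in Giza75. It was the highest Ghi or GhiAffx probe set on every array. Its mean signal was 3.68-fold that of rank 200. Rank 2 had 9526, 11610 and 10630 in HY BILs, 11824, 13478 and 9703 in LY BILs, 11525 in SG747 and 12237 in Giza75. Its place among all Ghi and GhiAffx probe sets lay between 2 and 6 on every array. Rank 3 had 9747, 10881 and 9884 in HY BILs, 10944, 12303 and 10308 in LY BILs, 10437 in SG747 and 11362 in Giza75.

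Ranks 4 to 9 stayed between place 3 and place 23 on all 8 arrays. Rank 10 moved most of the first 10, from place 3 to place 43. Its signal was 7300, 11675 and 8121 in HY BILs and 11294, 13063 and 6936 in LY BILs, against 10058 in SG747 and 7280 in Giza75. The values of rank 10 were high on the 3 BIL arrays with the highest medians and on SG747's, and low on the other arrays. Of the 10 highest members, 5 to 7 were also among the first 10 of each single array.

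**Figure D2:**
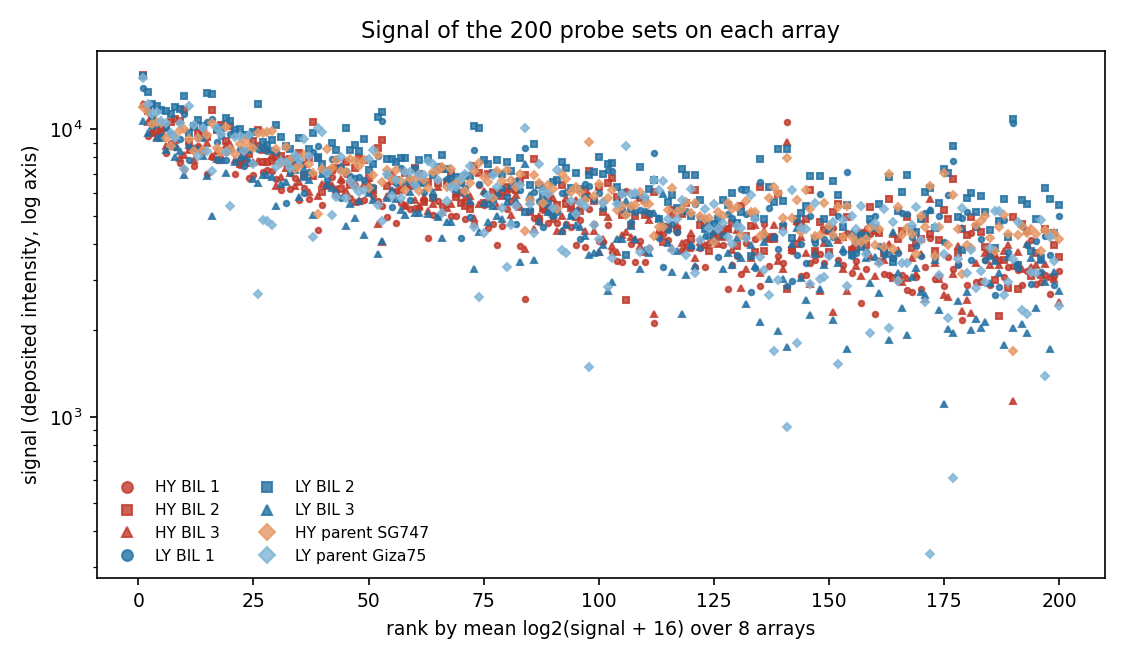
Signal (deposited intensity, log axis) of every member on every array against its rank by mean log2(signal + 16); each point is 1 probe set on 1 array. The cloud falls slowly from rank 1 to rank 200 and widens to the right, and its 3 lowest points, at 333, 611 and 924 for ranks 172, 177 and 141, belong to Giza75.

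At the lower edge the choice was close. Rank 200 had a mean log2(signal + 16) of 11.77 and rank 201 also 11.77. Rank 200 had signals of 3219, 3596 and 2515 in HY BILs, 4981, 5457 and 2741 in LY BILs, 4165 in SG747 and 2423 in Giza75. Rank 201 had 3543, 3497 and 3071 in HY BILs, 2695, 3244 and 3396 in LY BILs, 3784 in SG747 and 5096 in Giza75. On single arrays the 200 highest probe sets held 152 of the members in Giza75 and up to 179 in HY BIL 1, and 111 members were among the 200 highest on all 8 arrays. Some members dropped far on 1 array: 20 lay outside the first 400 and 3 outside the first 1000 at least once. Leaving out 1 array at a time, at least 190 of the 200 were chosen again.

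Control probe sets of named genes give the scale. The 3' probe set of actin, the protein of the microfilaments that carry vesicles in the growing fibre, had 5073, 5645 and 5781 in HY BILs and 4606, 6518 and 4777 in LY BILs. It had 6355 in SG747 and 5587 in Giza75, and its mean would have placed it at rank 89. The middle probe set of actin would have stood at rank 25 and the 5' one at rank 1159. Probe sets named for the same gene can thus stand far apart in rank, and what sets them apart was not tested. The 3' probe set of ubq11, a ubiquitin control, ranged from 1165 to 2010 and would have stood at rank 677, outside the 200. That of ss1, another control, ranged from 1696 to 4276 and would have stood at rank 343.

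Most members were probe sets that the array's naming marks as shared. The suffix _s_at marks probes common to several transcripts and _x_at probes that may match unrelated ones, while _at marks unique and _a_at transcripts of 1 gene. The actin and ubq11 controls above carry _x_at, so their ranks need not be those of 1 transcript. Of the 200, 135 (67.5%) were _s_at and 33 (16.5%) _x_at, with 26 (13.0%) _at and 6 (3%) _a_at. Over all 16800 the shares were 34.6% _s_at, 6.90% _x_at, 57.1% _at and 1.43% _a_at. The probe sets ranked 201 to 400 had nearly the same makeup, with 72.5%, 12.0%, 13.5% and 2% in the same order. The prefix Ghi was carried by 182 members (91.0%, against 61.5% of the 16800) and GhiAffx by 18. By these names, the signal of most members may join several transcripts, gene copies included.

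The members stood for 186 sequence clusters, read from the cluster number in the identifier. There were 10 clusters with 2 members and 2 with 3. Probe sets of the same cluster share a transcript or its close copies and are not independent. In 8 of these 12 clusters the difference between the parents varied by under 0.3 on the log2 scale. Ranks 27, 28 and 29 share a cluster and had nearly the same values. Rank 27 had 7139, 7710 and 8486 in HY BILs, 8601, 9048 and 6960 in LY BILs, 9689 in SG747 and 4826 in Giza75. Rank 28 had 9814 in SG747 and 4818 in Giza75, and rank 29 had 9915 in SG747 and 4664 in Giza75. All 3 had all 6 BILs between the parents.

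In another cluster the 3 members parted. Rank 22 had 8872 in SG747 and 9468 in Giza75, and rank 151 had 4276 in SG747 and 4755 in Giza75. Rank 138 of the same cluster had 6308 in SG747 and 1700 in Giza75, a log2 difference of 1.88 against -0.09 for rank 22 and -0.15 for rank 151. Likewise rank 152 had 5360 in SG747 and 1526 in Giza75, while its cluster partner rank 111 had 5491 in SG747 and 3827 in Giza75. In 52 of the 186 clusters there were also probe sets outside the 200, 139 in all. Their median rank was 4856 of 16800 and only 9 of them stood at ranks 201 to 400.

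The order of the members was more alike between some arrays than between others. Spearman's rho over the 200 members, given without a test because members share arrays and some share sequence, was 0.91 between HY BIL 2 and LY BIL 2, 0.90 between HY BIL 2 and LY BIL 1 and 0.87 between LY BILs 1 and 2. These are the 3 BIL arrays with the highest medians. Among the 3 with the lowest medians it was 0.89 for HY BILs 1 and 3, 0.85 for HY BIL 3 and LY BIL 3, and 0.78 for HY BIL 1 and LY BIL 3. Between these sets it was 0.53 to 0.75. Within the yield groups it was 0.72 to 0.89 among HY BILs and 0.53 to 0.87 among LY BILs, and between the groups 0.65 to 0.91. The highest values thus lay within these sets of arrays, each of which holds lines of both yield groups. The pattern was not particular to the members. Over all probe sets tested, rho was 0.944 to 0.954 and 0.914 to 0.937 within these sets and 0.836 to 0.920 between them. Over the next 200 by rank it was 0.61 to 0.68 and 0.31 to 0.75 within, and -0.47 to 0.23 between. The members were chosen by their mean over the same arrays, and how far that choice shapes rho was not tested.

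The 5'/3' ratio of the control ss1, a measure of how far labelled RNA reaches towards the 5' end, was 0.408, 0.428 and 0.324 in HY BIL 2 and LY BILs 1 and 2. It was 0.108, 0.186 and 0.271 in HY BILs 1 and 3 and LY BIL 3. That of ubq11 was 0.658, 0.598 and 0.481 against 0.266, 0.312 and 0.381 in the same order. That of actin overlapped between these sets (0.158, 0.157 and 0.174 against 0.124, 0.217 and 0.156). In SG747 and Giza75 the ratios were 0.211 and 0.345 for ss1, 0.484 and 0.584 for ubq11 and 0.189 and 0.148 for actin. The part of brightness and of RNA quality in the order of the members was not tested. SG747's order was closest to HY BIL 3 (rho 0.88) and farthest from LY BIL 3 (0.69). Giza75's was closest to LY BIL 3 (0.82) and farthest from LY BIL 2 (0.44). Between the parents rho was 0.53.

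**Figure D3:**
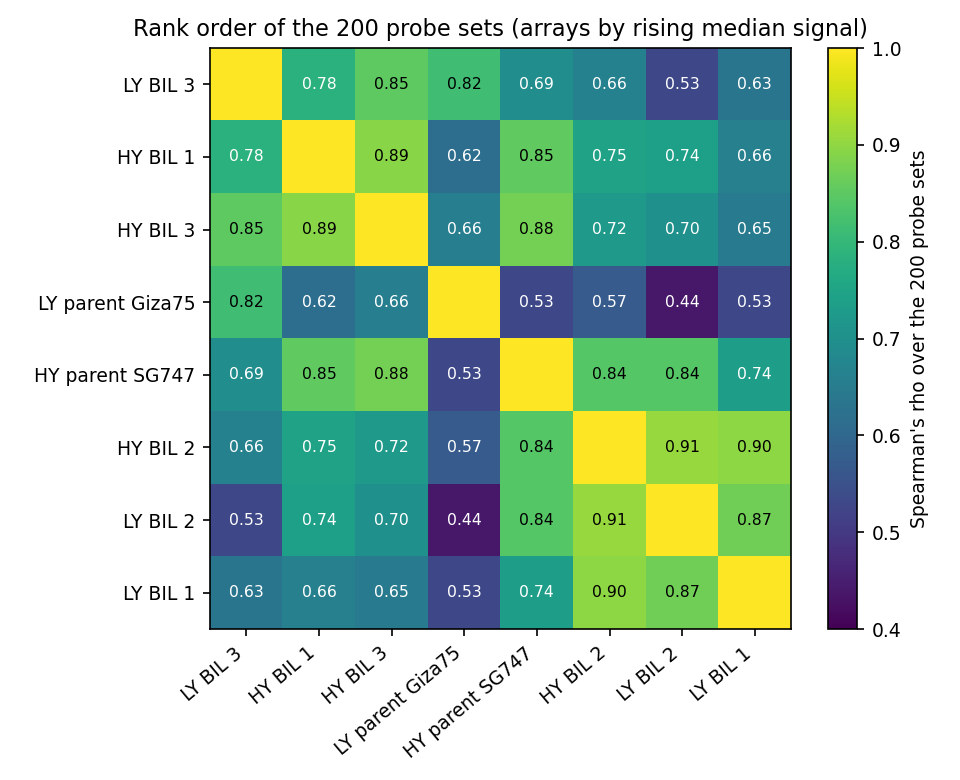
Spearman's rho of the signals of the 200 members for each pair of arrays, with arrays placed by rising median signal from left to right and top to bottom; brighter colour is a higher rho. The 3 BILs with the highest medians form a block of 0.87 to 0.91 at the lower right, and the lowest value is 0.44, for Giza75 with LY BIL 2.

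No member differed between HY and LY BILs past the adjusted threshold, and the direction of the members as a set depended on how arrays were scaled. Of the 200, 0 passed an adjusted p of 0.05 (limma, fitted on 14418 probe sets, of which 0, or 0.00%, passed), and all 200 members passed the filter on low values. At an unadjusted p under 0.05 there was 1 member, where 0.985% of all probe sets tested had such a p. The same member was the only one that was also at least 2-fold apart (0.680% of all tested). With quantile normalization 0 passed the adjusted threshold (0.00% of all tested), 1 had an unadjusted p under 0.05 (2.12%) and 0 were also 2-fold apart (0.707%).

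The median log2 difference of the members, HY minus LY, was -0.11 on the deposited values (-0.28 over all probe sets tested), 0.07 with quantile normalization (0.04 over all) and 0.16 with equal summed signal (-0.06 over all). Accordingly, 165 members had a lower mean in HY lines on the deposited values (82.5%, where 83.1% of all tested did), 55 with quantile normalization (27.5%, where 45.2% did) and 25 with equal sums (12.5%, where 56.8% did). The deposited values also rested on LY BIL 2: without it the median turned to 0.03 and the count lower in HY lines to 85 (42.5%, where 63.8% of all tested were).

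The groups of lines did not overlap for 7 members, all lower in HY BILs on the deposited values, which is 3.5% where 2.34% of all tested were. None was apart in the higher direction (0.388% of all tested). With quantile normalization 0 were apart and lower (2.03% of all tested) and 5 apart and higher (2.5%, where 4.18% of all tested were). With equal sums 0 were apart and lower (2.03% of all tested) and 9 apart and higher (4.5%, where 2.97% of all tested were). The count of 7 became 66 without LY BIL 3 (33%, where 46.4% of all tested were) and 31 without HY BIL 2 (15.5%, where 17.7% were). It became 16 without LY BIL 1 (8%, where 3.21% were) and 13 without HY BIL 3 (6.5%, where 4.54% were). None of the 7 was apart in either scaled version. Ranks 38 and 98 were among those apart and higher in both scaled versions. Both overlapped on the deposited values and had an adjusted p of 0.994 with quantile normalization (limma).

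Rank 39 (Ghi.8982.3.S1_at) was the most different of the 7. Its signal was 4462, 7925 and 5858 in HY BILs 1, 2 and 3 and 8754, 7988 and 7985 in LY BILs 1, 2 and 3. The nearest lines, HY BIL 2 and LY BIL 3, were almost level. The means were 6082 ± 1742 (SD, n = 3) in HY lines and 8242 ± 443 (SD, n = 3) in LY BILs, a log2 difference of -0.48 ± 0.23 (SE; limma, adjusted p = 0.999), -0.31 with quantile normalization and -0.21 with equal sums. The parents were ordered likewise, with 5063 in SG747 and 10098 in Giza75.

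Rank 40 (Ghi.1969.1.S1_at) had 5456, 6076 and 6463 in HY lines and 7142, 7574 and 6976 in LY BILs, with 7268 in SG747 and 9761 in Giza75. Its log2 difference was -0.27 ± 0.18 (SE; limma, adjusted p = 0.999), and -0.09 with quantile normalization. Ranks 71, 22 and 64 had log2 differences of -0.26, -0.20 and -0.20 on the deposited values, which were -0.05, -0.05 and -0.02 with quantile normalization and turned to 0.01, 0.07 and 0.07 with equal sums. For these 4 members equal sums moved the difference by nearly its whole size or more. With cyclic loess, another scaling, ranks 40, 71, 22 and 64 kept -0.20, -0.18, -0.14 and -0.13.

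The member with the lowest unadjusted p, 0.0226, was rank 112. It had 2118, 6077 and 2272 in HY BILs 1, 2 and 3 and 8293, 6652 and 5130 in LY BILs 1, 2 and 3. HY BIL 2 lay above LY BIL 3, so the groups overlapped. The means were 3489 ± 2243 (SD, n = 3) in HY lines and 6692 ± 1582 (SD, n = 3) in LY BILs. The log2 difference was -1.09 ± 0.40 (SE; limma, adjusted p = 0.999), -0.85 with quantile normalization and -0.82 with equal sums. The parents had 4246 in SG747 and 6659 in Giza75. This difference kept its sign and most of its size under both scalings. The 3 highest lines, LY BILs 1 and 2 and HY BIL 2, were also those with the highest array medians and the higher 5'/3' ratios of ss1 and ubq11, whose part in the difference was not tested.

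**Figure D4:**
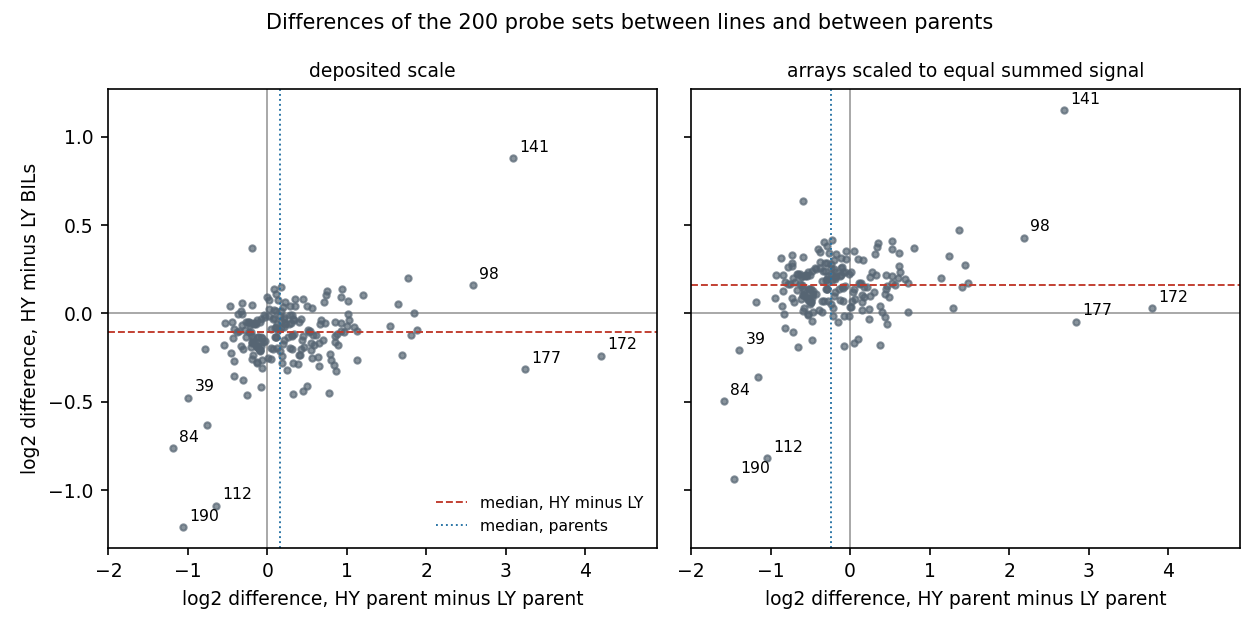
Log2 difference between HY and LY BILs (vertical) against that between SG747 and Giza75 (horizontal) for the 200 members, on the deposited scale (left) and with arrays scaled to equal summed signal (right); each point is 1 probe set, numbers are ranks, and dashed and dotted lines are medians. The medians change sign between the panels (-0.11 and 0.16 for the lines, 0.16 and -0.24 for the parents), while ranks 141, 112, 190, 172 and 177 stay far out.

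The members spread less across the BILs the higher they ranked. The highest BIL was under 1.5-fold the lowest for 86 members, against 45 of those ranked 201 to 400, and at least 2-fold for 56, against 82. At least 2-fold were 4 of the first 50 ranks, 8 of the next 50, 17 of the 50 after these and 27 of the last 50. The median SD of log2 values over the 6 BILs was 0.24 for the members, 0.33 for ranks 201 to 400 and 0.56 over all probe sets tested (0.20, 0.29 and 0.39 with quantile normalization). Within the yield groups the median SD was 0.26 for the members. The members were chosen by a mean of logs, which low values pull down, so the rule itself favours a small spread.

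The most level member was rank 125, with 4351, 4196 and 4210 in HY BILs and 4108, 4676 and 4445 in LY BILs. Its SD was 0.07 on the log2 scale. Its cluster partner rank 113 was among the 5 most level too, with 4396, 4245 and 4426 in HY BILs and 4174, 4868 and 4913 in LY BILs. In the parents rank 125 had 4045 in SG747 and 5520 in Giza75, and rank 113 had 4586 in SG747 and 6138 in Giza75. Rank 41 ranged from 6377 to 7162 and rank 62 from 5585 to 6549 over the 6 lines. Rank 147 ranged from 3510 to 4154.

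At the other end stood rank 190 (Ghi.5529.2.S1_s_at), with 3344, 4961 and 1131 in HY BILs and 10549, 10910 and 2035 in LY BILs. LY BILs 1 and 2 were far above the other arrays, and LY BIL 3 was within the range of the HY lines. The highest BIL was 9.64-fold the lowest. As for rank 112, the 3 highest lines were those with the highest array medians and higher 5'/3' ratios of ss1 and ubq11, whose part was not tested. The means were 3145 ± 1923 (SD, n = 3) in HY lines and 7831 ± 5023 (SD, n = 3) in LY BILs, a log2 difference of -1.21 ± 0.70 (SE; limma, adjusted p = 0.999). The parents had 1687 in SG747 and 3528 in Giza75, so LY BILs 1 and 2 were also far above both parents.

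Rank 141 parted the arrays in a way that matched neither the yield groups nor the order of the array medians in full. It had 10657, 2782 and 9033 in HY BILs 1, 2 and 3 and 2844, 8528 and 1755 in LY BILs 1, 2 and 3, with 7967 in SG747 and 924 in Giza75. HY BILs 1 and 3 and LY BIL 2 were at or above SG747. HY BIL 2 and LY BILs 1 and 3 lay between the parents. On HY BIL 1 it was at place 2 of all Ghi and GhiAffx probe sets, and in Giza75 it was at place 1061. The log2 difference between the yield groups was 0.88 ± 0.63 (SE; limma, adjusted p = 0.999). That was the highest HY minus LY difference of all members on the deposited values, and the groups overlapped. No other member had the same 4 arrays below its largest step.

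Ranks 177 and 175 varied with a different set of lines. Rank 177 (Ghi.6639.1.S1_s_at) had 3264, 6722 and 3149 in HY BILs and 7780, 8745 and 1961 in LY BILs, with 5903 in SG747 and 611 in Giza75. Rank 175 had 2854, 5252 and 2656 in HY BILs and 4048, 7298 and 1109 in LY BILs, with 7049 in SG747 and 3698 in Giza75. Both had their 3 highest BIL values on the 3 BIL arrays with the highest medians.

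Between the parents, the 4 members at least 4-fold apart were all higher in SG747, and both scalings gave the same counts. The rule asks for a high mean over all arrays. A probe set high only in Giza75 can thus hardly be a member, while one low only in Giza75 can. Nothing is therefore read from the direction of the parental counts of members. At least 2-fold higher in SG747 were 19 members (9.5%, where 21.5% of all tested were), and at least 2-fold lower 2 members (1%, where 4.29% were). At least 4-fold higher were 4 (2%, where 2.89% were) and 4-fold lower 0 (0.770% of all tested). Each parent had 1 array, so these differences carry no error estimate, and the difference between the shares was not tested. The median log2 difference of the members was 0.16 on the deposited values (0.42 over all tested), 0.04 with quantile normalization (0.03 over all) and -0.24 with equal sums (0.11 over all). With quantile normalization 13 were 2-fold higher (6.5%, where 8.59% were) and 4 lower (2%, where 9.02% were), and with equal sums 11 higher (5.5%, where 11.4% were) and 6 lower (3%, where 7.42% were).

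Rank 172 (Ghi.8608.1.S1_x_at) had the largest difference, with 6366 in SG747 and 333 in Giza75, 19.1-fold. All 6 BILs were nearer SG747 than Giza75, with 4186, 4330 and 5721 in HY lines and 5223, 6237 and 5243 in LY lines. In Giza75 this member stood at place 2351. Rank 98 had 9018 in SG747 and 1492 in Giza75, 6.04-fold, with 5283, 7181 and 5931 in HY lines and 6358, 6951 and 3657 in LY BILs. Rank 26, the highest-ranked member at least 2-fold apart, had 9715 in SG747 and 2685 in Giza75 and 6495 to 12220 in the BILs.

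A low signal in Giza75 need not be a low transcript level. The probes of the members were designed from G. hirsutum sequences, and whether they match G. barbadense transcripts equally was not tested. Of the 19 members 2-fold higher in SG747, 14 were among the 135 _s_at, 4 among the 33 _x_at and 1 among the 26 _at. This split was not counted over all probe sets tested, and nothing is read from it. For 8 of the members the largest step between neighbouring arrays was at least 2-fold and had Giza75 alone below it (4%, where 1.60% of all tested did). These shares come from the same values that chose the members, so nothing is read from them. Any such step of 2-fold or more was found in 11 members (5.5%, where 11.1% of all tested had one).

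On the deposited values 2 members were at least 2-fold higher in Giza75. Rank 84 (Ghi.4548.2.S1_s_at) had 4442 in SG747 and 10143 in Giza75, 2.28-fold, with 2566, 6932 and 3833 in HY BILs and 8598, 5164 and 7562 in LY BILs. HY BILs 1 and 3 were below both parents and no line was above Giza75. Rank 190 was the other one, with the values given above. Rank 39 was just short of it at 1.99-fold. Rank 106 had 5055 in SG747 and 8728 in Giza75, with 6085, 2547 and 4381 in HY lines and 5075, 3648 and 5616 in LY BILs. Rank 179 had 3136 in SG747 and 5324 in Giza75, with 2177, 4504 and 2334 in HY lines and 4931, 3804 and 4541 in LY BILs.

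**Figure D5:**
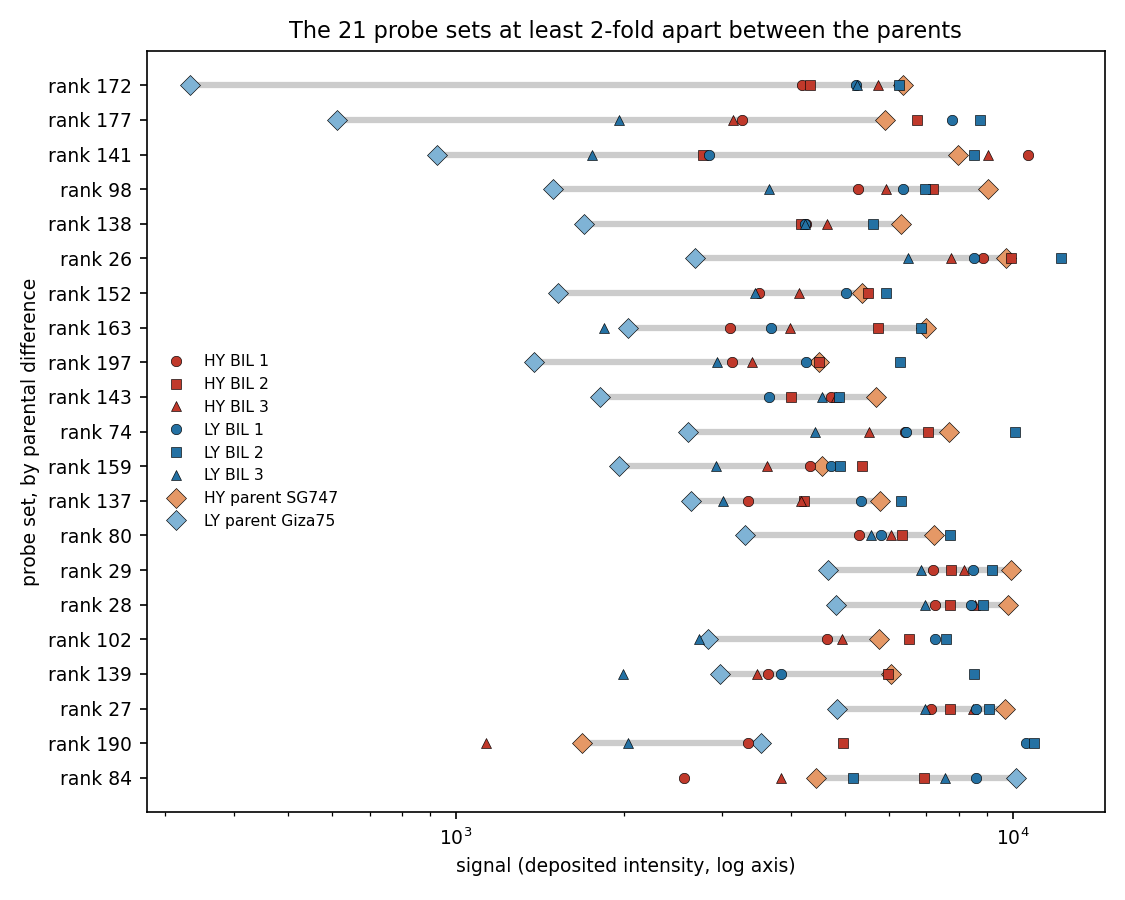
Signal (deposited intensity, log axis) on all 8 arrays of the 21 members at least 2-fold apart between the parents, sorted by that difference; diamonds are the parents, joined by a grey bar, and small symbols the 6 BILs. For 19 of the 21 Giza75 is the lower diamond. Most BIL values of these 19 lie nearer SG747. Nothing is read from this, since the rule asks for a high mean over all 8 arrays.

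For the 19 members higher in SG747, the position of the lines between the parents is given as a description only. The rule asks for a high mean over all 8 arrays, so a member that is low in Giza75 is among the 200 through high values on other arrays, and nothing is read from these counts. The number nearer SG747 was 16, 19 and 18 of 19 in HY BILs 1, 2 and 3 and 17, 19 and 11 of 19 in LY BILs 1, 2 and 3. With quantile normalization, where 13 members qualified, it was 13, 12 and 13 in HY lines and 11, 13 and 11 in LY BILs. LY BIL 3 had the fewest on the deposited values, and it had the lowest array median. Over all 3100 tested probe sets at least 2-fold higher in SG747, the shares nearer SG747 were 29.5%, 90.2% and 33.4% in HY BILs 1, 2 and 3 and 90.6%, 94.9% and 13.7% in LY BILs 1, 2 and 3. With quantile normalization, over 1238 such probe sets, they were 79.9%, 83.6% and 78.8% in HY BILs and 71.2%, 85.7% and 49.6% in LY BILs.

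All 6 BILs lay below both parents for 15 members (7.5%, where 3.99% of all tested did), above both for 1 (0.5%, where 0.721% did) and between them for 10 (5%, where 4.24% did). With quantile normalization the counts were 4 (2%, where 2.98% did), 2 (1%, where 1.98% did) and 25 (12.5%, where 4.83% did). With equal sums they were 1 (0.5%, where 2.25% did), 4 (2%, where 2.18% did) and 9 (4.5%, where 5.33% did). The number of members below both parents thus depended on the scale. Rank 142 was the farthest below, with 3771, 3795 and 3905 in HY lines and 2958, 4179 and 3994 in LY BILs against 4927 in SG747 and 6179 in Giza75. Rank 191 had 3237, 2793 and 3742 in HY lines and 3289, 3381 and 3409 in LY BILs against 4280 in SG747 and 4755 in Giza75. Rank 20, the one above, had 8576 to 10738 in the BILs against 8538 in SG747 and 5411 in Giza75.

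Of all probe sets on the array, 170 of the 200 highest were members. The others came from probe sets designed on other cotton species (18 with the prefix Gra, 4 GraAffx, 4 GarAffx and 3 GbaAffx), plus 1 RPTR control, a probe set for a reporter gene. Rank 200 stood at place 238 among all probe sets.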

How the data were processed

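Fibre RNA was measured on 8 arrays, 1 for each of 3 HY BILs, 3 LY BILs, SG747 and Giza75. The deposited values are linear intensities per probe set. GCOS and MAS5 made them, per the submitters' processing notes, with version and scaling target not given in the sources used here. Of 24132 probe sets, 103 AFFX controls were left out. Values were used as log2(value + 16), so a fold change on that scale understates the change of low signals. The members and the named ones were chosen with earlier results of these data known.

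Named by rule were ranks 1 to 10, ranks at the edge of the choice and the 5 largest parental differences in each direction. No member passed the adjusted threshold between HY and LY. Up to 5 per direction were therefore taken by lowest unadjusted p among members whose groups did not overlap. Also named were the 5 largest and 5 smallest SDs over the BILs and up to 2 members farthest above and below both parents. Ranks 26 to 29, 38, 111, 151 and 152 were named after their values were seen. No gene list was described, since no probe set could be named.

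The 40% of probe sets lowest by mean were dropped, so 14418 entered the fit. HY and LY BILs were compared with limma 3.58.1 (R 4.3.3; lmFit, then eBayes with trend). P-values were adjusted by Benjamini-Hochberg over all 14418. Parents, shares and ranks were not tested. With 1 array a line, p-values measure the joint spread of lines, samples and arrays, and the number of arrays limits the precision. No pair of arrays held more than 1.20% equal values. Alternatives were other pseudocounts, filters and scalings, leaving out arrays, shared or control probe sets, a fit without trend, a parent term and the line number as a block.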

Additional observations from a re-analysis of the deposited data

Results flagged for a closer look

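Over the 6 BILs, 14 quantities were examined (2 shares, the member median, members in the own top 200 and the signals of ranks 1 to 10), and 1 had an array far from the other 5. Rank 5 had 11710 in LY BIL 2 and 9311 to 10164 in the other BILs. About 1 in 20 such sets of values is marked by chance, and LY BIL 2 had the highest member median of all arrays.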

How the results depend on the processing

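No alternative but the block on line number gave a member past the adjusted threshold between HY and LY BILs. With line number as a replicate block, 2 members passed it (ranks 190 and 112, adjusted p by limma 0.0189 and 0.0367; 9 of all probe sets did) and 2 had an unadjusted p under 0.05 and were 2-fold apart (1%, where 3.07% of all tested were). The lines share only a number, and same-numbered ones had correlations of their deviations of -0.29, 0.21 and 0.58. With quantile normalization and the replicate block, 0 passed. The counts apart and lower in HY (0), apart and higher (5) and with a lower HY mean (55) were those of quantile normalization alone.

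Scaling moved most counts. Members apart and lower in HY (7 on deposited values) were 0 with quantile normalization, equal sums or median centring (2.03%, 2.03% and 1.66% of all tested). They were 4 with cyclic loess (2%, where 2.52% were) and 1 with a parent term (0.5%, where 0.659% were). Without _s_at and _x_at, 32 members are left. Of these, 3 were apart and lower (9.38%, where 2.54% of 7910 tested were) and 25 had a lower HY mean (78.1%, where 80.2% did). Members apart and higher (0) were 5 with quantile normalization (2.5%, where 4.18% of all tested were) and 9 with equal sums (4.5%, where 2.97% were). They were 5 with median centring (2.5%, where 3.37% were) and 2 with cyclic loess (1%, where 3.26% were). Members with a lower HY mean (165) were 55 with quantile normalization (27.5%, against 45.2%) and 25 with equal sums (12.5%, against 56.8%). They were 20 with median centring (10%, against 49.3%) and 115 with cyclic loess (57.5%, against 50.8%), each against all tested. The median difference became 0.16 with equal sums, 0.18 with median centring and -0.02 with cyclic loess. The count of 1 at unadjusted p under 0.05 and 2-fold became 0 with each of these 4 scalings (0.707% to 0.846% of all tested). It was also 0 without trend (0.576% of all tested) and, of 32 members, without _s_at and _x_at (0.582%). With equal sums ranks 71, 22 and 64 turned to 0.0135, 0.0653 and 0.0654, and with median centring ranks 40, 71, 22 and 64 to 0.0132, 0.0283, 0.0799 and 0.0803.

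Leaving out 1 BIL at a time gave 7 to 66 members apart and lower, 0 to 9 apart and higher, 85 to 180 with a lower HY mean, a median of -0.27 to 0.03, 0 to 4 at unadjusted p under 0.05 and 2-fold, and 0 past the adjusted threshold. The 4 were found without HY BIL 2 (2%, where 4.32% of all tested were), and 3 were found without LY BIL 3 (1.5%, where 21.5% were). The 9 apart and higher were found without LY BIL 2 (4.5%, where 2.7% of all tested were). A lower HY mean was found for 180 without LY BIL 3 (90%, where 90.9% of all tested had one). It was found for 85 without LY BIL 2 (42.5%, where 63.8% had one). Leaving out 1 array kept at least 190 members and a median rho of 0.69 to 0.76. The HY minus LY differences then ran from -1.57 to -0.82 for rank 112, -0.69 to -0.27 for rank 39, -0.33 to -0.21 for rank 40, -0.31 to -0.19 for rank 71, -0.28 to -0.11 for rank 22 and -0.25 to -0.13 for rank 64.

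Members 2-fold higher in SG747 (19) were 11 with equal sums (5.5%, where 11.4% of all tested were) and 4 at 4-fold (2%, where 2.89% were). They were also 11 with median centring or cyclic loess and 1 of 32 without _s_at and _x_at. Members 2-fold lower (2) were 4 with quantile normalization (2%, where 9.02% of all tested were) and 6 with equal sums (3%, where 7.42% were). They were 4 with median centring, 6 with cyclic loess, and 0 at 4-fold (0.770% of all tested) or, of 32, without _s_at and _x_at. For median centring, cyclic loess and the 32 members, parental shares over all tested were not counted. Nothing is read from those counts. The parental median became -0.24 with equal sums and -0.16 with cyclic loess. Members with all BILs above, below and between the parents were 2, 4 and 25 with quantile normalization, and with equal sums 4 were above and 1 below.

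The share with Ghi and GhiAffx probe sets alone as divisor was 25.8% in HY BILs, 23.6% in LY BILs, 22.5% in SG747 and 26.5% in Giza75. The 50 highest members held 8.44% in HY BILs, 7.55% in LY BILs, 6.84% in SG747 and 8.56% in Giza75. The alternatives without RPTR and GhirRNA controls, and those that rescale the BILs' positions between the parents, were chosen after seeing the data. Causes were not tested. The number of arrays, 3 a group, sets how small a difference could be detected.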
